A study of Mus musculus with 24 samples.

Results

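The sites bound by TEAD in the livers of tet-Myc and wild-type mice were compared as 2 peak lists from chromatin immunoprecipitation with sequencing (ChIP-seq). The lists held 44220 peaks in tet-Myc and 33417 in wild-type, 77637 of the 665214 peaks and regions in the 23 lists of the series that were used. A tet-Myc peak that overlapped a wild-type TEAD peak by at least 1 bp was called kept, and a tet-Myc peak with no such overlap was called gained. A wild-type peak with no tet-Myc TEAD peak was called lost. Each library was labelled as mouse liver and came from animals carrying the R26-rtTA transactivator, which controls shared. Wild-type animals (R26-rtTA;WT) had no further transgene, tet-Myc animals (R26-rtTA;tet-Myc) had a doxycycline-inducible Myc, tet-YAP animals an inducible YAP and tet-Myc/YAP animals both, and doxycycline was given for 2 days. R26-rtTA is driven from a widely active locus, so induction need not be limited to hepatocytes, and the paper's methods also name a liver-specific driver. The sources used here give neither age nor sex, and do not say whether animals were pooled. Each antibody and genotype was 1 library, so no difference below has a replicate check and none was tested. Peaks are given by mm9 position, since the annotation at hand was of another build, and neither gene names nor a check of the liver label against marker genes was possible.

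TEAD proteins are the DNA-binding factors of the Hippo pathway. They stay on chromatin when the pathway is active, and they recruit the coactivator YAP, which has no DNA-binding domain, when it is not. In the liver this pathway limits organ size. Myc, a transcription factor, binds E-box sequences and, when abundant, occupies many active promoters and enhancers. H3K4me3 marks promoters, H3K4me1 marks enhancers and promoter flanks, and H3K27ac marks promoters and enhancers that are active.

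Most TEAD sites of the wild-type liver were found again after Myc induction, and the tet-Myc list added a large set of further, mostly weaker sites. Kept peaks numbered 27968 in the tet-Myc list, where they met 27498 wild-type peaks. Gained peaks made up 36.8% of the tet-Myc list (16252 of 44220, 95% interval 36.3 to 37.2%) and lost peaks 17.7% of the wild-type list (5919 of 33417, 17.3 to 18.1%). Intervals here and below are Wilson intervals that cover counting only, and neighbouring peaks are not independent. Merged into common intervals, the lists gave 49029 sites, 26858 of them in both lists. The libraries had 31.6 and 33.1 M tags in tet-Myc and wild-type, so the longer list came from the slightly shallower library.

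The shares depend on the length of the lists. With the tet-Myc list cut to its 33417 strongest peaks, 29.4% of it was gained and 29.4% of the wild-type list lost, shares that lists of equal length bring close to each other whatever the binding, so the cut does not show whether more sites were gained than lost. A lower threshold in either list would move sites from gained or lost to kept, and a peak just under the threshold cannot be told apart from an empty site in these lists.

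The overlap rule itself left few peaks in doubt. The median overlap of a kept peak with its wild-type partner was 505 bp. Only 125 kept peaks overlapped by 1 to 50 bp, 132 gained peaks lay within 50 bp of a wild-type peak, and 115 lost peaks lay within 50 bp of a tet-Myc peak.

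Gained and lost peaks were narrower and less enriched than kept peaks. The median width was 615 bp for kept, 407 bp for gained and 415 bp for lost peaks, and the narrowest peaks, 295 bp in tet-Myc and 322 bp in wild-type, equalled the fragment size estimated for each library. Median fold enrichment over the control, as the authors' peak caller gave it, was 8.20 for kept peaks and 6 for gained peaks in the tet-Myc list. In the wild-type list it was 6.14 for kept and 4.86 for lost peaks.

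Strong sites were rarely lost. Among the 1686 wild-type peaks with a −log10 q of 50 or more, where q is the false discovery rate of the peak, 2 were lost (0.119%). The lost share was 1.59% between 20 and 50, 14.6% between 10 and 20, and 34.2% between 5 and 10. The −log10 q scale differs between the lists, as kept peaks had a median of 22.9 in tet-Myc and 14.65 in wild-type. The gained and lost shares of a bin are thus not like for like. Gained sites were 3.90% of the 6083 tet-Myc peaks with a −log10 q of at least 50 (237 peaks), 21.8% between 20 and 50 and 47.1% between 10 and 20. Width showed the same order, with 70.2% of tet-Myc peaks under 350 bp gained against 3.18% of those of 900 bp or more, and 41.7% against 2.12% for lost peaks.

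**Figure D1:**
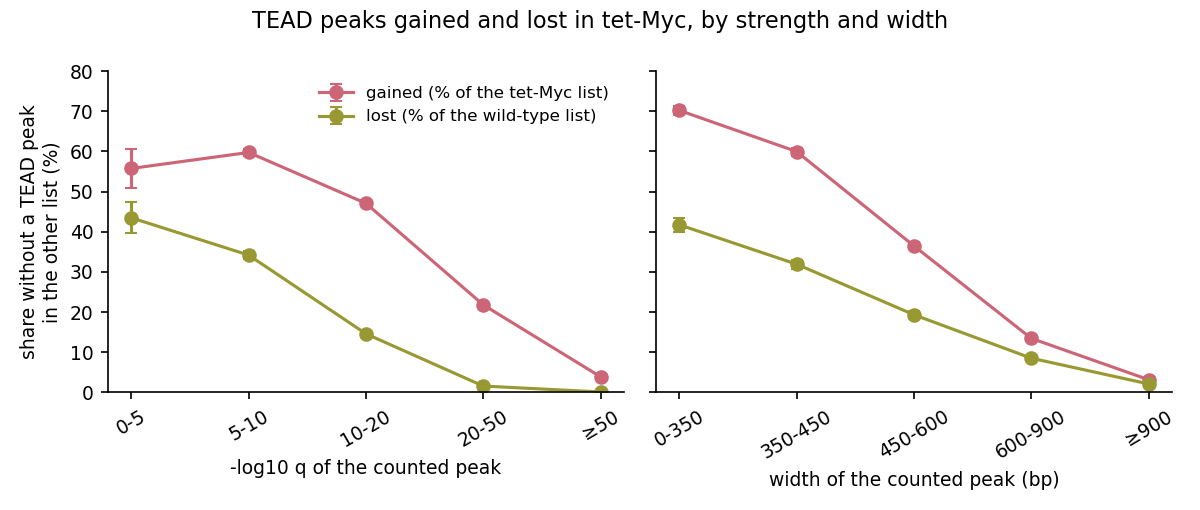
The share of peaks with no TEAD peak in the other list (y axis, percent) is plotted by −log10 q (left) and by width in bp (right), for the tet-Myc list (gained) and the wild-type list (lost), with Wilson 95% intervals. Both shares are lowest among the strongest and widest peaks, where 3.90% of tet-Myc peaks were gained and 0.119% of wild-type peaks lost at a −log10 q of at least 50.

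By −log10 q the leading kept peak was chr5:137754747-137756166, on wild-type H3K4me3, with a TEAD fold enrichment of 102.56 in tet-Myc and 51.56 in wild-type. The next was chr11:80631159-80632386, which carried none of the 3 histone marks in wild-type and had 101.86 in tet-Myc and 48.12 in wild-type. They were followed by chr11:6099017-6100857 (83.47 and 40.11), chr11:120914168-120915924 (90.55 and 58.75) and chr2:50542426-50543371 (95.88 and 28.71). All 5 had a TEAD peak in all 4 genotypes and a YAP peak in both tet-YAP and tet-Myc/YAP, and 3 of them had a Myc peak in tet-Myc. Among the 5846 kept peaks with a −log10 q of at least 50, 12.6% overlapped the YAP list of tet-YAP and 48.4% that of tet-Myc/YAP.

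Gained sites differed from kept and lost sites in the chromatin they occupied in the wild-type liver. Peaks on H3K4me3 regions of the wild-type liver were called promoter-like, those on H3K27ac or H3K4me1 but not on H3K4me3 distal, and those on none of the 3 marks unmarked. Promoter-like peaks were 57.6% of kept (57.0 to 58.1%), 28.0% of gained (27.3 to 28.7%) and 54.8% of lost peaks (53.6 to 56.1%), against 46.7% of all tet-Myc and 56.6% of all wild-type TEAD peaks. Distal peaks were 33.2%, 41.1% and 34.5% of the classes in the same order, against 36.1% of all tet-Myc and 33.8% of all wild-type peaks. Unmarked peaks were 9.23% of kept, 30.9% of gained and 10.7% of lost peaks, against 17.2% of all tet-Myc and 9.60% of all wild-type peaks. Lost sites thus had nearly the makeup of kept sites, while gained sites held fewer promoters and more unmarked chromatin. Whether the kept or the lost class had the larger promoter-like share changed with the settings (60.0 and 63.3% with a −log10 q of at least 10 in every narrow list), whereas the gained share stayed lowest, at 24.4 to 30.8%.

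Among distal peaks, sites without H3K27ac in wild-type were more frequent in the gained class. H3K4me1 alone was found at 25.8% of distal gained peaks, 17.3% of distal kept peaks and 13.0% of distal lost peaks. Of the whole classes these were 10.6% (1723), 5.76% (1610) and 4.49% (266). Distal sites with wild-type H3K27ac made up 27.5% of kept, 30.5% of gained and 30.005% of lost peaks. They were 28.6% of all tet-Myc and 28.2% of all wild-type TEAD peaks, and H3K4me1 alone was at 7.54 and 5.61%.

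**Figure D2:**
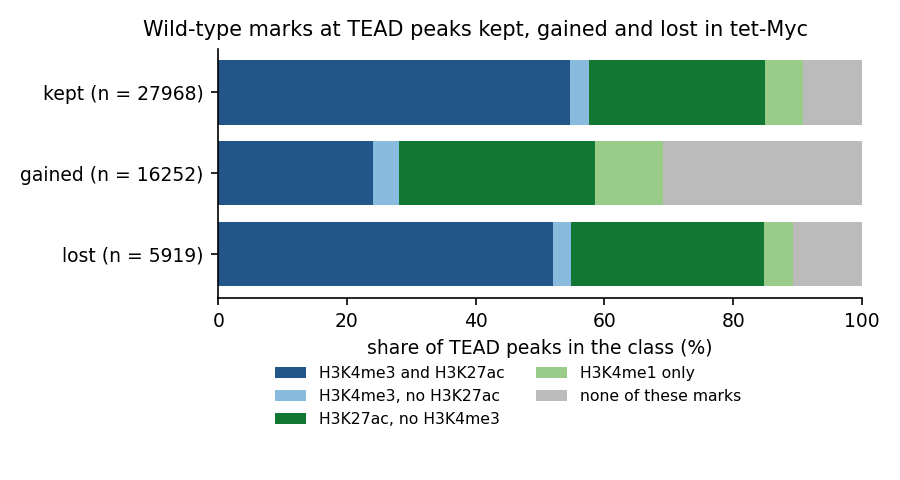
Stacked bars show the percentage of kept, gained and lost TEAD peaks by the marks of the wild-type liver, with H3K4me3 in blue (with or without H3K27ac), H3K27ac or H3K4me1 without H3K4me3 in green, and none of these in grey. The grey part is 30.9% of gained peaks, against 9.23% of kept and 10.7% of lost peaks, and the blue parts together are 28.0% of gained peaks.

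Unmarked gained sites were not the weakest ones. Median fold enrichment was 6.22 at unmarked, 5.89 at distal and 5.62 at promoter-like gained peaks. Of the 237 gained peaks with a −log10 q of at least 50, 36.7% were unmarked (30.8 to 43.0%), 43.9% distal and 19.4% promoter-like. Among the 5846 kept peaks of that strength 10.3% were unmarked and 53.2% promoter-like.

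Gained peaks lay further from the other list than lost peaks did, but the list searched was shorter for gained peaks (33417 against 44220 peaks). The classes also differed in position. The median distance from a gained peak to the nearest wild-type TEAD peak was 9.32 kb, with 14.3% within 1 kb and 51.6% within 10 kb. From a lost peak to the nearest tet-Myc TEAD peak it was 4.04 kb, with 26.4% within 1 kb. The distance depended on position, from 2.30 kb for promoter-like to 6.58 kb for distal and 32.6 kb for unmarked gained peaks. For lost peaks these medians were 1.75, 5.83 and 19.3 kb. Of promoter-like gained peaks, 55.7% lay in an H3K4me3 region that also held a kept peak, as did 56.7% of promoter-like lost peaks. A larger share of gained promoter-like peaks lay near the border of the mark. Within 500 bp of the edge of the H3K4me3 region were 23.6% of gained, 14.3% of kept and 16.7% of lost peaks. The median distance to the edge was 1060 bp for gained, 1117 bp for kept and 1292 bp for lost peaks.

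Counted by region, most wild-type H3K4me3 regions with TEAD held it in both genotypes. These regions had a median width of 3358 bp and can hold several peaks, so their shares are not comparable with those of peaks. Of the 18852 wild-type H3K4me3 regions, 61.2% held TEAD peaks in both genotypes, 8.12% (1530) in tet-Myc only, 5.47% (1031) in wild-type only and 25.3% in neither. Regions with TEAD in both were the widest, at a median of 3946 bp against 2398 bp for those with none.

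Myc binding in tet-Myc was most frequent at kept sites and least frequent at gained sites. A tet-Myc Myc peak overlapped 65.4% of kept (64.8 to 66.0%), 28.3% of gained (27.6 to 29.0%) and 47.5% of lost peaks (46.3 to 48.8%), against 51.8% of all tet-Myc and 62.5% of all wild-type TEAD peaks. Thus 11658 of the 16252 gained sites had no Myc peak. The order of the classes was the same at promoter-like sites (81.9% of kept, 53.5% of gained and 66.0% of lost) and at distal sites (52.7%, 29.0% and 31.3%). At unmarked sites Myc was rare in each class, at 8.17%, 4.33% and 4.91%.

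The lower share at gained sites was not limited to weak or narrow peaks. Among peaks with a −log10 q of at least 50, Myc was found at 67.2% of kept and 32.9% of gained peaks. By position these shares were 84.5 and 58.7% at promoter-like (27 of 46 gained peaks) and 58.3 and 40.4% at distal sites (42 of 104). At unmarked sites of this strength they were 9.45 and 10.3%, so a lower share was not seen there. That gained share rests on 9 of 87 peaks (5.54 to 18.5%), too few to order the classes. Peaks of 900 bp or more overlapped Myc more often than peaks under 350 bp in each class. Between 350 and 450 bp the shares were 52.2% of kept, 24.2% of gained and 44.0% of lost peaks. When width was left out by asking for a Myc summit within 250 bp of the TEAD summit, they were 44.1%, 20.02% and 31.6%. Where TEAD and Myc peaks overlapped, their summits were a median of 152 bp apart at kept, 134 bp at gained and 157 bp at lost sites.

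Myc peaks of the wild-type liver overlapped 8.27% of kept, 0.492% of gained and 4.38% of lost sites. That list had 4775 peaks with a median width of 81 bp, and its estimated fragment size, 51 bp, equalled the tag length, so it is not comparable with the tet-Myc list of 32592 peaks and 670 bp.

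Seen from the 32592 Myc peaks of tet-Myc, 54.1% lay on TEAD peaks present in both genotypes, 12.5% on TEAD peaks of tet-Myc only, 7.43% on TEAD peaks of wild-type only and 26.0% on none. Among H3K4me3 regions of the wild-type liver, Myc of tet-Myc was found in 90.1% of those with TEAD in both genotypes, 64.5% with TEAD in tet-Myc only, 73.4% with TEAD in wild-type only and 25.2% with no TEAD in either.

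RNA polymerase II and H3K27ac followed the same order of classes. RNA polymerase II of tet-Myc was found at 66.9% of kept (66.3 to 67.5%), 35.6% of gained (34.9 to 36.3%) and 59.3% of lost peaks (58.0 to 60.5%), against 55.4% of all tet-Myc and 65.6% of all wild-type TEAD peaks. In wild-type the shares were 48.7%, 16.9% and 45.9%. By position, the tet-Myc shares were 88.4, 70.3 and 82.1% at promoter-like and 47.2, 35.2 and 39.4% at distal sites. At unmarked sites kept peaks were lowest, at 3.87%, against 4.63% of gained and 6.34% of lost peaks. The tet-Myc library of RNA polymerase II was deeper than the wild-type library (50.6 against 20.9 M tags) and its list longer (74914 against 39181 peaks). With the tet-Myc list cut to 39181 peaks the shares were 59.9%, 28.2% and 52.0%. The part of depth in these differences was not tested. Each class, lost sites included, had a higher share in tet-Myc than in wild-type with the list cut. The cut makes the number of peaks equal but not their width, and the full lists had medians of 700 bp in tet-Myc and 647 bp in wild-type.

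H3K27ac of tet-Myc covered 84.8% of kept (84.4 to 85.2%), 60.7% of gained (59.9 to 61.4%) and 79.0% of lost peaks (78.0 to 80.1%), against 75.9% of all tet-Myc and 83.6% of all wild-type TEAD peaks. In wild-type it covered 82.2%, 54.6% and 82.0%. The share was thus 6.01 percentage points higher in tet-Myc at gained sites and 2.62 points higher at kept sites, while at lost sites it fell by 2.92 points. The wild-type and tet-Myc lists of the mark held 17821 and 20524 regions and covered 231 Mb each. By position, tet-Myc H3K27ac covered 97.1% of kept, 91.7% of gained and 95.3% of lost promoter-like peaks. At distal sites lost peaks were lowest, with 84.2, 77.7 and 75.4% in the same order. Lost peaks were also lowest at unmarked sites (10.1, 9.71 and 6.97%).

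**Figure D3:**
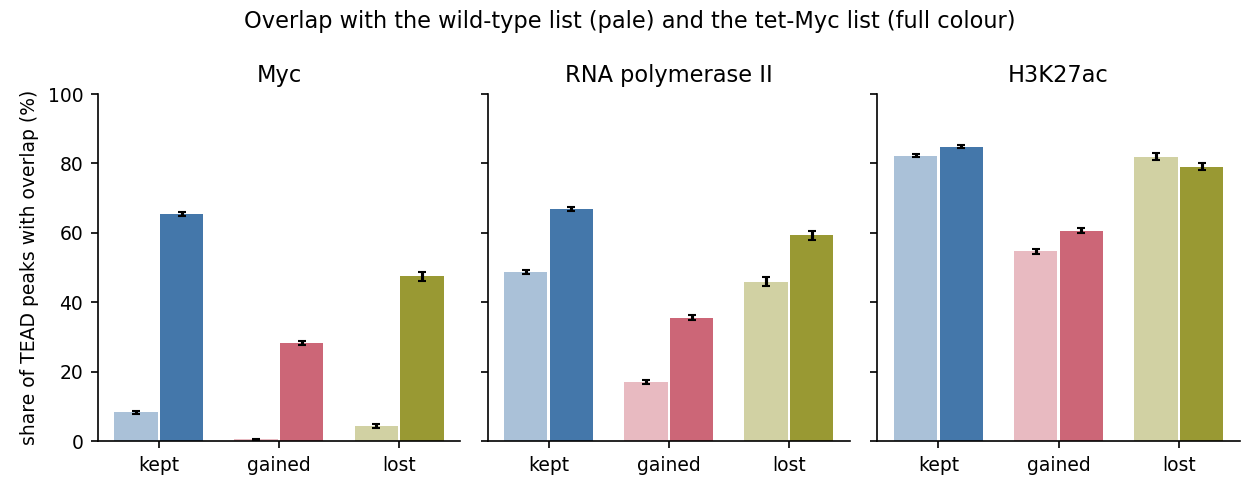
Bars give the percentage of kept, gained and lost TEAD peaks that overlapped Myc, RNA polymerase II and H3K27ac, in the wild-type list (pale) and in the tet-Myc list (full colour), with Wilson 95% intervals. In the tet-Myc lists gained peaks have the lowest share of each, at 28.3, 35.6 and 60.7%, and H3K27ac is lower in tet-Myc than in wild-type at lost peaks alone (82.0 and 79.0%).

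The H3K27ac that appeared or disappeared was split by Myc. Of peaks with no H3K27ac in wild-type, the mark was present in tet-Myc at 27.3% of kept, 19.8% of gained and 14.2% of lost peaks. Over all such tet-Myc and wild-type TEAD peaks it was present at 22.8 and 25.1%. With a Myc peak the class shares were 56.6%, 57.2% and 46.7% (692 of 1222, 458 of 801 and 57 of 122 peaks). Without a Myc peak they were 17.8%, 15.2% and 10.04%. Of peaks with H3K27ac in wild-type, the mark was absent in tet-Myc at 2.73% of kept, 5.41% of gained and 6.70% of lost peaks. Over all such tet-Myc and wild-type TEAD peaks it was absent at 3.48 and 3.47%. With Myc the class shares were 0.826%, 1.42% and 1.45%, and without Myc 8.23%, 8.37% and 13.2%. The gap between sites with and without Myc was wider than the gaps between the classes, but position was not held in this split. Unmarked sites seldom had Myc (8.17, 4.33 and 4.91% of kept, gained and lost) or tet-Myc H3K27ac (10.1, 9.71 and 6.97%). Both were more frequent at sites with H3K4me1 alone, given below. The part of this mix of sites in the gap was not tested.

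At enhancers with H3K4me1 alone in wild-type, lost sites stood below the other classes. H3K27ac was present there in tet-Myc at 42.9% of kept, 39.4% of gained and 17.3% of lost peaks (691 of 1610, 679 of 1723 and 46 of 266). Myc was present at 39.8%, 21.6% and 13.5% of the same sites.

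Taking Myc, RNA polymerase II and H3K27ac of tet-Myc jointly, all 3 were found at 55.5% of kept, 19.9% of gained and 40.0% of lost peaks. None of the 3 was found at 11.8%, 34.2% and 17.1%. Gained sites with H3K27ac but neither Myc nor RNA polymerase II were 22.4% of the class, against 12.02% of kept peaks.

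H3K4me3 called in wild-type was absent in tet-Myc at 9.60% of kept, 14.2% of gained and 13.9% of lost promoter-like peaks. Over all promoter-like tet-Myc and wild-type TEAD peaks it was absent at 10.6 and 10.3%. The tet-Myc regions of this mark were narrower (a median of 2646 against 3358 bp) and covered 63.6 against 82.3 Mb, in about as many regions (18772 and 18852).

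At kept sites TEAD enrichment was mostly higher in tet-Myc. The log2 ratio of fold enrichment, tet-Myc over wild-type, had a median of 0.42 with quartiles of 0.03 and 0.85, and 76.4% of the 27968 sites were higher in tet-Myc. An increase of more than 2 times was seen at 18.0% and a decrease of that size at 0.855%. Fold enrichment was scaled by the caller within each library, so a shift over all sites cannot be told apart from a difference between the libraries, and differences between groups of kept sites are given against it.

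The ratio was larger away from promoters. Its median was 0.31 at promoter-like, 0.55 at distal and 0.66 at unmarked kept sites. When kept sites were split at the quartiles of wild-type enrichment, the median was lower at promoter-like than at distal sites in each of the 4 groups. In the top group it was 0.26 at promoter-like and 0.62 at distal sites, and in the bottom group 0.53 and 0.67. Myc separated kept sites little once position was held: the median was 0.30 with and 0.37 without Myc at promoter-like sites, and 0.57 with and 0.53 without at distal sites.

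**Figure D4:**
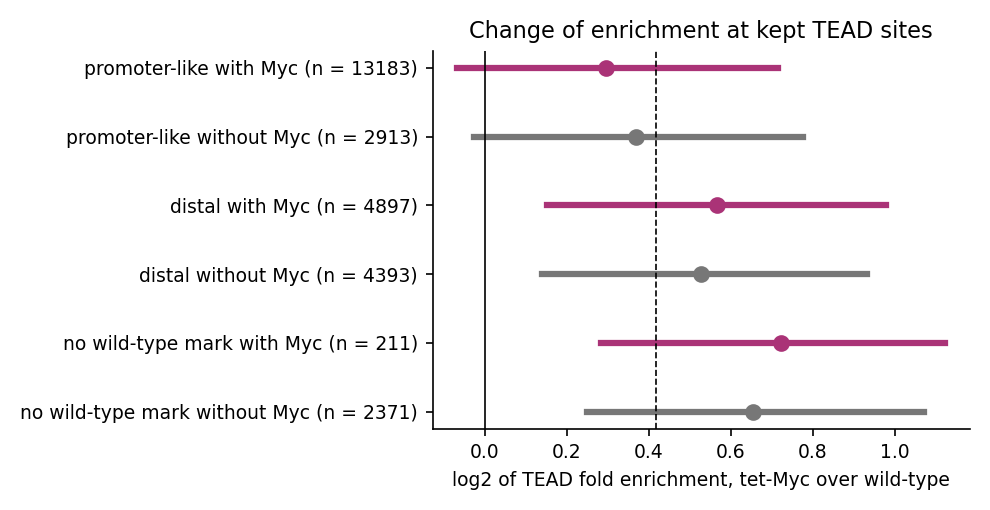
Points are medians and lines the quartiles of the log2 ratio of TEAD fold enrichment (tet-Myc over wild-type, x axis) at kept sites, split by wild-type marks and by a tet-Myc Myc peak. The dashed line is the median of all kept sites, 0.42, and promoter-like sites lie left of it and distal and unmarked sites right of it, with or without Myc.

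At the 1000 kept sites with a tet-YAP YAP peak the median log2 ratio was 0.80, and 89.6% were higher in tet-Myc, a liver without the YAP transgene. At the 9554 kept sites with a YAP peak in tet-Myc/YAP it was 0.37. The tet-YAP YAP list held 1328 peaks with a median width of 98 bp and an estimated fragment size of 56 bp, close to the tag length. It takes in few sites, and the cause of this was not tested.

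The TEAD lists of the livers with the YAP transgene gave a further look at each class in libraries that the classes did not use. In the tet-YAP list, which had no Myc transgene, a TEAD peak was found at 81.2% of kept (80.7 to 81.6%), 28.2% of gained (27.5 to 28.9%) and 33.2% of lost sites (32.0 to 34.4%), against 61.7% of all tet-Myc and 73% of all wild-type TEAD peaks. In tet-Myc/YAP these shares were 95.2%, 71.3% (70.6 to 72.0%) and 53.0% (51.7 to 54.3%), against 86.4% and 87.8%. The tet-Myc/YAP list was longer, with 52392 against 32486 peaks. Cut to 32486 peaks, it held 81.0% of kept, 43.8% of gained (43.0 to 44.6%) and 20.7% of lost sites (19.7 to 21.7%). At equal length, therefore, kept sites were found alike in both, gained sites more often in tet-Myc/YAP and lost sites more often in tet-YAP.

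Site by site, 23.6% of gained sites were in the cut tet-Myc/YAP list and not in tet-YAP, against 8.01% the other way round. For lost sites the shares were 8.80% and 21.3%, and for kept sites 9.25% and 9.41%. With the full tet-Myc/YAP list, lost sites went the other way, with 28.4% in tet-Myc/YAP only and 8.65% in tet-YAP only. The same shares were 45.4 and 2.28% of gained and 15.4 and 1.38% of kept sites. The direction at lost sites thus depended on the cut, which drops the weaker tet-Myc/YAP peaks. With the full list, 26.4% of gained and 38.4% of lost sites were in neither of the 2 lists, against 3.42% of kept sites. Gained sites in neither list were narrower, with a median of 362 bp, and 47.5% of them were unmarked and 10.8% had Myc. Those in both were 466 bp wide, and 19.5% were unmarked and 44.5% had Myc.

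**Figure D5:**
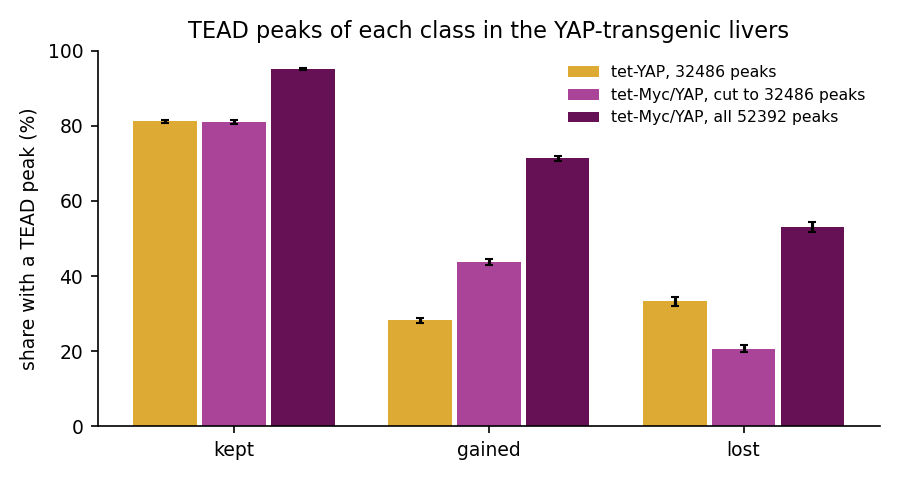
Bars give the percentage of kept, gained and lost sites with a TEAD peak in tet-YAP, in tet-Myc/YAP cut to the same number of peaks, and in the full tet-Myc/YAP list, with Wilson 95% intervals. At equal length the bars are 81.2 and 81.0% at kept, 28.2 and 43.8% at gained, and 33.2 and 20.7% at lost sites.

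Most of the strongest gained sites also had TEAD in the liver without the Myc transgene but with YAP. Of the 237 with a −log10 q of at least 50, 236 overlapped a TEAD peak in the tet-Myc/YAP list (99.6%). The tet-YAP list also held 177 of them (74.7%, 68.8 to 79.8%), and at these 177 sites only the wild-type list lacked a peak. For the 5846 kept peaks of the same strength, the shares were 99.98% with the tet-Myc/YAP list and 98.6% (98.2 to 98.8%) with the tet-YAP list. Strong gained sites thus had TEAD in the tet-YAP liver less often than kept sites of equal strength.

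YAP itself was rare at gained sites. In tet-Myc/YAP a YAP peak overlapped 34.2% of kept (33.6 to 34.7%), 5.14% of gained (4.81 to 5.49%) and 13.0% of lost sites (12.2 to 13.9%), against 23.5% of all tet-Myc and 30.7% of all wild-type TEAD peaks. At promoter-like sites the shares were 46.6%, 12.9% and 20.5%. In tet-YAP they were 3.58% of kept, 0.320% of gained and 0.304% of lost sites, against 2.38% of all tet-Myc and 3.05% of all wild-type TEAD peaks. The YAP list of tet-Myc/YAP was called from 17.4 M tags against a control of 167 M. For tet-YAP these were 25.2 and 25.2 M, so the YAP shares of these livers are not like for like. By region, 59.0% of wild-type H3K4me3 regions with TEAD in both genotypes held a YAP peak in tet-Myc/YAP, 17.1% of those with TEAD in tet-Myc only and 27.7% of those with TEAD in wild-type only.

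Single sites show the range within the gained class. The gained peak with the highest −log10 q, chr17:8468958-8470574, had a fold enrichment of 38.19. It was distal with H3K4me1 and H3K27ac in wild-type, carried Myc in tet-Myc and in tet-Myc/YAP, and had TEAD in all genotypes but wild-type, where the nearest TEAD peak was 2.60 kb away. The next, chr7:107623003-107623804, had 30.16, the same wild-type marks and a Myc peak in tet-Myc, with the nearest wild-type TEAD peak 61.7 kb away. The promoter-like peak chr8:26720441-26721172 (32.11) carried Myc and RNA polymerase II in tet-Myc and had no TEAD peak in tet-YAP. No Myc was called at chr6:54721104-54721820 (22.71), a distal site that kept its H3K27ac.

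Among unmarked gained sites, chr7:52999644-53000203 (28.10) and chr10:25037383-25037966 (24.69) overlapped TEAD peaks of the 3 transgenic genotypes and no other list of the series. By contrast, chr14:103862852-103863508 (24.59) had none of the marks in wild-type and overlapped H3K27ac, H3K4me3, Myc and RNA polymerase II in tet-Myc. It also had TEAD in tet-YAP, without a called mark there, and YAP in tet-Myc/YAP. Its nearest wild-type TEAD peak was 113 kb away.

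At the strongest lost site the marks were absent together with TEAD. At chr1:69024944-69026500, with a wild-type fold enrichment of 15.00, TEAD, H3K4me3 and H3K27ac were called in wild-type and tet-YAP, and YAP in tet-YAP, while no list of tet-Myc or tet-Myc/YAP overlapped the peak. The nearest tet-Myc TEAD peak was 4.26 kb away. The second, chr10:57463377-57463814 (13.50), kept H3K4me3 in all genotypes and had TEAD in both lists with the YAP transgene. At chr11:75546386-75547073 (11.75) and chr1:10027708-10028533 (11.57) a tet-Myc TEAD peak lay 123 and 354 bp away, and Myc, RNA polymerase II, H3K4me3 and H3K27ac were all called in tet-Myc. At chr9:21705440-21706480 (11.22) H3K4me3, RNA polymerase II and Myc remained in tet-Myc and H3K27ac was not called.

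Away from promoters, the strongest lost sites were weaker. The distal site chr2:71444941-71445699 (10.83) had H3K27ac in every genotype but tet-Myc, and TEAD likewise. The unmarked site chr7:73806423-73806855 (9) had TEAD in no other genotype. In the lost class as a whole, 512 sites (8.65%) had TEAD in tet-YAP and in neither liver with the Myc transgene. H3K27ac covered 80.1% of these sites in wild-type and 69.1% in tet-Myc. Lost sites with TEAD in neither YAP-transgene liver (38.4%) had 73.4 and 68.9%. Those with TEAD in tet-Myc/YAP only (28.4%) had 86.0 and 86.9%, and those with TEAD in both (24.6%) had 91.3 and 89.2%.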

How the data were processed

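TEAD peak lists of tet-Myc and wild-type liver were compared with each other and with 21 further lists, 1 library per antibody and genotype, grouped by sample titles. An input sample was not analysed here. The submitters' processing notes name the mm9 build, BWA 0.6.2, SAMtools and MACS2 2.0.9. Each of the 14 narrow lists (Myc, TEAD, YAP, RNA polymerase II) was, per the file headers, called alone at a p-value cutoff of 1.00e-05 with at most 2 duplicate tags per position, and depth is the tags left after filtering. The deposited narrow lists give the authors' pileup signal at the summit, fold enrichment as a ratio over the control, and −log10 p and q values. The 9 broad lists of histone marks were deposited with a score per region, which was not used. The sources used here do not give their depth.

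Overlaps of at least 1 bp were counted in Python 3.11.15 (pandas 2.3.3, numpy 2.4.6). In tests on simulated data (2000 peaks, 600 of them with a partner) 8 of 8 checks were recovered, and bedtools 2.31.1 gave the same 27968 and 27498 overlaps. Wilson 95% intervals came from scipy 1.17.1 and figures from matplotlib 3.10.9. For the ratio at kept sites, each tet-Myc peak was set against the overlapping wild-type peak. Positions are 1-based. With 1 library per group no test was made. Single peaks were the 5 of each class, and the 3 of each split of gained and lost peaks (promoter-like, distal, unmarked, with and without Myc), with the highest −log10 q; only some of these are described. Alternatives were a −log10 q of at least 10 in every narrow list, the summit inside the other interval, overlap of at least 50% of the shorter interval, and TEAD lists of equal length. The members, classes and further cuts were chosen with earlier results of these data known.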

Additional observations from a re-analysis of the deposited data

How the results depend on the processing

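No paired analysis was possible because each antibody and genotype was 1 library. The classes were recomputed under 4 settings and compared with the 95% interval of each value. With a −log10 q of at least 10 in every narrow list, the gained share was 45.4% and the promoter-like shares of kept, gained and lost peaks 60.0, 30.8 and 63.3%. Myc was then at 60.8% of kept and 53.9% of lost peaks, RNA polymerase II at 65.4 and 64.7%, and H3K27ac at 85.9, 64.7 and 83.9% of kept, gained and lost peaks. Median widths were 693, 471 and 533 bp and median folds 9.80, 7 and 5.79. With the summit inside the other interval, 40.5% were gained and 22.5% lost, 56.4, 30.2 and 56.8% of kept, gained and lost peaks were promoter-like, and H3K27ac covered 84.2, 62.9 and 81.5%. Myc was at 59.9% of kept and 45.6% of lost peaks, RNA polymerase II at 62.4 and 57.5%, the median fold of kept peaks was 8.43, and the widths of gained and lost peaks were 414 and 433.5 bp. With overlap of at least 50% of the shorter interval, 38.6% were gained and 19.8% lost. Promoter-like shares of kept and gained peaks were 56.7 and 28.8%, Myc was at 63.2, 27.3 and 44.9%, RNA polymerase II at 64.9, 34.5 and 57.4%, and H3K27ac at 84.3, 61.7 and 80.1% of kept, gained and lost peaks. The width of kept peaks was 621 bp and the folds of kept and gained peaks 8.33 and 5.87. With TEAD lists of equal length, 29.4% were gained and 29.4% lost, which by construction of equal lists come out alike. Promoter-like shares were 56.2, 24.4 and 57.7%, RNA polymerase II was at 66.2, 31.9 and 63.5%, H3K27ac at 84.2, 57.6 and 82.1% of kept, gained and lost peaks, and Myc at 26.7% of gained and 54.7% of lost peaks. Widths were 654, 446 and 440 bp, and folds 9.10 and 6.82 for kept and gained peaks. In each setting, over all positions, gained peaks had the lowest share of Myc, RNA polymerase II, H3K27ac and promoter-like sites. Kept peaks had the highest share of Myc, RNA polymerase II and H3K27ac. The cause of the other shifts was not tested.

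Further settings were chosen after seeing the data. With a −log10 q of at least 10 in the counted list only, 30.1% of tet-Myc peaks were gained and 9.15% of wild-type peaks lost. A Myc summit within 250 bp of the TEAD summit was found at 44.1, 20.02 and 31.6% of kept, gained and lost peaks. RNA polymerase II lists of equal length gave 59.9, 28.2 and 52.0%, and the tet-Myc/YAP TEAD list cut to the length of tet-YAP gave 81.0, 43.8 and 20.7%. Depth is unknown for the histone marks, and single libraries leave the spread between animals unmeasured.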

Other observations

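TEAD peaks on chromosome X stood apart from those on the autosomes. The wild-type list held 309 and the tet-Myc list 600, and 55.7% of the latter were gained, against 34.6 to 39.7% on the 19 autosomes. The lost share on X was 14.6%, against 15.4 to 19.8% on the autosomes. X held 0.925% of TEAD peaks in wild-type, 0.831% in tet-YAP, 1.36% in tet-Myc and 1.54% in tet-Myc/YAP. For RNA polymerase II the share on X was 1.38 to 1.45% in the 4 genotypes. For H3K27ac it was 1.79% in wild-type, 2.03% in tet-YAP, 2.33% in tet-Myc and 2.25% in tet-Myc/YAP. Of the 334 gained peaks on X, 80.8% overlapped the tet-Myc/YAP TEAD list and 21.0% the tet-YAP TEAD list, and 45.8% were unmarked. The sources used here do not give the sex of the animals. Without X and Y the gained share was 36.5% and the lost share 17.7%.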
